A study of Mus musculus with 56 samples.

Results

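The collagen genes encode the chains of the collagens, the triple-helical proteins that make up most of the extracellular matrix. They were taken by symbol, as every gene of the deposited expression table whose official symbol is Col, a number, a and a number. That rule gave 43 of the 20314 genes in the table, 11 of them fibrillar, 8 of the basement membrane and 24 others. Of the 43, 34 reached 1 CPM (counts per M reads) in at least 2 of the 56 samples and could be tested. The 9 that did not were Col24a1 among the fibrillar genes and Col6a5, Col6a6, Col9a2, Col19a1, Col22a1, Col23a1, Col26a1 and Col28a1 among the others.

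RNA was sequenced from mouse mammary tumour cell lines of 7 β-catenin (Ctnnb1) genotypes, written fl/fl, D164A/fl, D164A/-, ΔC/fl, ΔC/-, dm/fl and dm/-. In the TGFb experiment each genotype was kept for 4 days with 2 ng/ml TGFb or left untreated, and in the Wnt3a experiment for 3 days with 100 ng/ml Wnt3a or left untreated with its own control cells. That made 28 groups of 2 replicates each, 56 samples in all. In these names fl is a floxed allele that works as the normal gene and a dash is an allele removed by Cre, so that D164A/-, ΔC/- and dm/- cells carry only the mutant allele.

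β-catenin holds cadherins to the cytoskeleton and carries the Wnt signal to the nucleus. TGFb is the cytokine best known for raising collagen genes in fibroblasts and in epithelial cells that take on mesenchymal traits. D164A is a substitution in the part of β-catenin that binds the Bcl9 cofactors, and the names ΔC and dm are used here as the labels give them.

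The lines came from MMTV-PyMT tumours, a mouse model in which a viral oncogene is made in the mammary epithelium. Lines without a floxed allele were made by infection with an adenovirus (Ad-Cre-IRES-GFP) and sorting for GFP. More than a single fl/fl line was set up, but which line each fl/fl sample came from is not given in the sources used here, nor how many lines stand behind the other genotypes. Genotype and cell line therefore cannot be told apart. The replicates are named biological duplicates with nothing on whether they are separate cultures, so the p-values measure only the spread between these samples, which may be technical. Between 22.4 and 33.7 M reads fell in genes in each sample (median 26.8 M). In the deposited CPM these totals are multiplied by a factor of 0.809 to 1.14 per sample before the division, so 3 reads, taken as the floor, were worth 0.092 to 0.146 CPM. That floor covers counting error only.

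Ctnnb1, the gene the alleles belong to, was present in every sample. It stood at 815 and 1045 CPM without and 1316 and 1216 CPM with TGFb in fl/fl cells, at 612 and 679 CPM without and 874 and 892 CPM with TGFb in D164A/fl cells and at 752 and 775 CPM without and 966 and 1056 CPM with TGFb in D164A/- cells. The values were 2030.1 and 1463 CPM without and 1288 and 1108 CPM with TGFb in ΔC/fl cells and 2127 and 2161 CPM without and 3188 and 2552 CPM with TGFb in ΔC/- cells. They were 1327 and 1410.0 CPM without and 1343 and 1125 CPM with TGFb in dm/fl cells and 770.4 and 897 CPM without and 1234 and 1061 CPM with TGFb in dm/- cells. In the Wnt3a experiment Ctnnb1 lay between 531 CPM in dm/- cells with Wnt3a and 1612 CPM in untreated ΔC/- cells. A value per gene adds up every allele, so these levels neither show nor check which allele a line carries.

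Epithelial markers were present in all of the lines. All 5 luminal genes reached 1 CPM and summed to 1067 to 8122 CPM, with Krt18 the most abundant and Krt19 above 1 CPM in the 8 fl/fl samples alone. All 5 basal genes reached 1 CPM, led by Krt14, with sums of 8.16 to 3936 CPM. Of 10 fibroblast genes 4 reached 1 CPM (Pdgfra in 56 samples, Scara5 in 54, Pdgfrb in 28 and Dcn in 6), and Thy1, Dpt, Lum, Fap, Pi16 and Mfap5 never did. The endothelial list had 2 of 5 genes at 1 CPM and sums up to 35.2 CPM, nearly all of it Cdh5 in dm/fl cells with TGFb. The list for pericytes and smooth muscle had 3 of 5, led by Mcam, with sums of 1.95 to 136 CPM, and the immune list 1 of 5, Cd68, with sums of 1.15 to 79.4 CPM. Vim, a mesenchymal gene, reached 1 CPM in 54 of 56 samples, with values of 0.0917 to 3957 CPM.

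Replicates of the TGFb experiment lay close together: of 9513 genes, 0.589% to 6.58% differed 2-fold or more between the libraries of a group. Several pairs of the Wnt3a experiment stood apart. In dm/fl cells without Wnt3a 60.7% of the genes differed that much and in dm/- cells with Wnt3a 50.4%. The share was 22.0% to 27.2% in fl/fl and ΔC/- cells with Wnt3a and in D164A/fl, ΔC/fl and ΔC/- cells without it. Of the 56 samples, 54 were most similar to a sample of their own genotype, and 32 to the other replicate of their own group. The exceptions were dm/fl without Wnt3a replicate 1, which was most similar to dm/- with Wnt3a replicate 2, and D164A/fl without Wnt3a replicate 2, which was most similar to D164A/- without Wnt3a replicate 2. All 56 libraries share a common estimate of the spread, and some of the results that rest on these pairs are also given without a library of the pair. From the values a swap, a mixture and a difference between cultures cannot be told apart. The treatment protocol in the labels also speaks of Pygo2 lines, while the genotype fields name the Ctnnb1 alleles used here.

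Together the 43 genes made up a small part of each transcriptome. Without TGFb they summed to 2093 and 2164 CPM in fl/fl cells and, at the low end, 577 and 730.1 CPM in D164A/fl cells. Untreated ΔC/fl cells were at the high end, with 4558 and 2987 CPM. The most abundant collagen gene by CPM was Col12a1 in 16 samples, Col18a1 in 13 and Col8a1 in 10. Scaled to CPM per kb of transcript, which allows for the length of the genes, it was Col18a1 in 16, Col8a1 in 14 and Col12a1 in 8. The fibrillar genes, the ones that build banded fibres, summed to 13.6 and 6.36 CPM in untreated and 177 and 316 CPM in TGFb-treated fl/fl cells. Their sum was 327 and 311 CPM without and 1495 and 884 CPM with TGFb in D164A/- cells. In dm/fl cells it was 875 and 668 CPM without and 425 and 224 CPM with TGFb, lower in both treated libraries. A single gene made up most of several of these sums. It was Col5a3 in treated fl/fl cells, Col11a1 in D164A/- cells with and without TGFb and Col5a2 in untreated dm/fl cells. No test was run on the sums. The dm/fl libraries without Wnt3a, which stand apart, differed here too, with 5929 and 1465 CPM over all 43 genes.

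**Figure D1:**
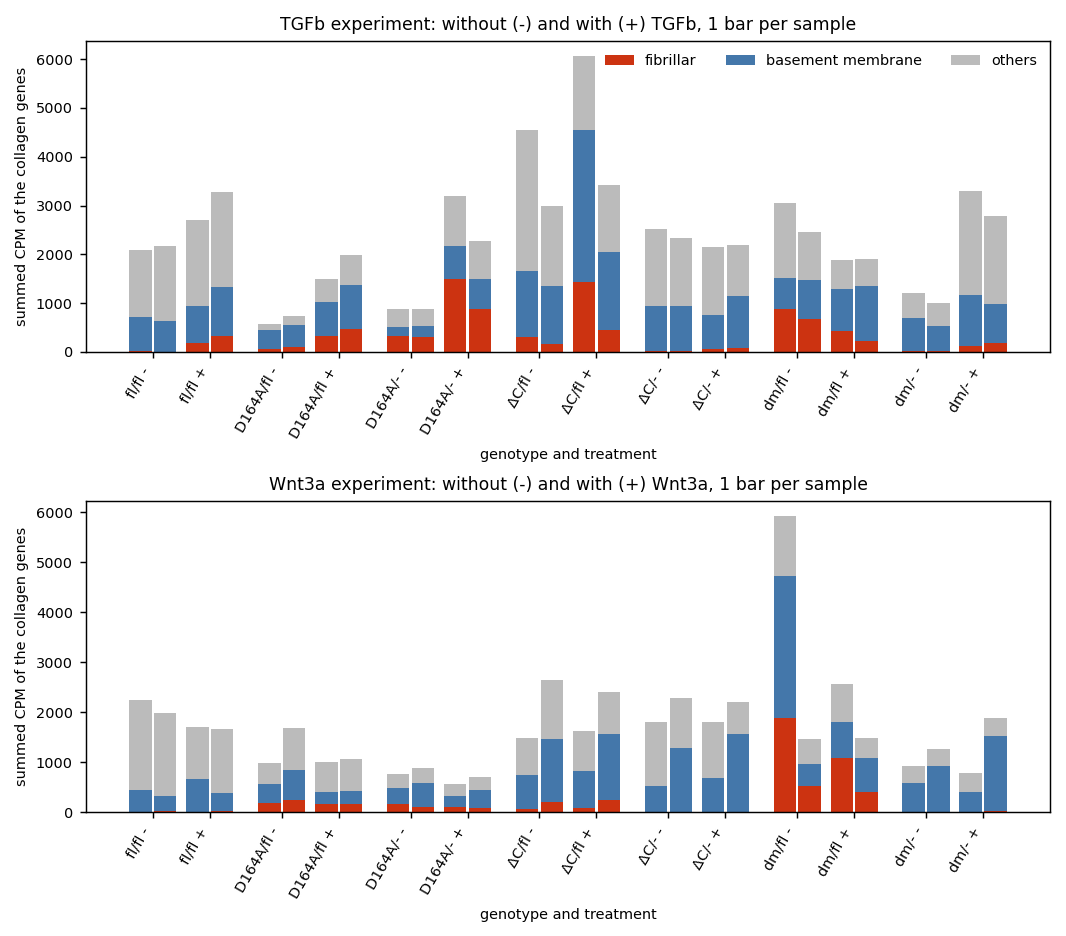
Summed CPM of the collagen genes (vertical axis) in each of the 56 samples, a bar per sample stacked by class, with the TGFb experiment above, the Wnt3a experiment below and the groups along the horizontal axis. In the TGFb experiment the fibrillar sum reached 1495 CPM in D164A/- cells with TGFb and lay at 13.6 and 6.36 CPM in untreated fl/fl cells.

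The main question was which collagen genes change with TGFb in each genotype. Each gene was tested with limma on log2(CPM + 1) and called where the adjusted p was 0.05 or less and the log2 difference 1 or more in either direction. That scale understates the change of genes near the floor. The 7 comparisons gave 75 calls over 34 tested genes. Smad7, a common TGFb target, rose in 6 of 7 genotypes and Tgfbi in 2, while Skil was called in 0 (limma).

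In fl/fl cells 6 of 34 rose and 2 fell, beside 3.31% and 2.94% of all genes tested, with a median log2 difference of 0.14 for the members and -0.03 for all genes. D164A/fl cells saw 13 of 34 genes rise and 1 fall, beside 2.5% and 0.88% of all genes tested, with a median log2 difference of 0.87 for the members and 0.03 for all genes. In D164A/- cells 10 of 34 rose and 0 fell, beside 2.7% and 1.36% of all genes tested, with a median log2 difference of 0.62 for the members and 0.00 for all genes. ΔC/fl cells saw 8 of 34 genes rise and 3 fall, beside 3.24% and 4.49% of all genes tested, with a median log2 difference of 0.43 for the members and 0.02 for all genes. In ΔC/- cells 4 of 34 rose and 2 fell, beside 2.86% and 3.69% of all genes tested, with a median log2 difference of 0.03 for the members and 0.00 for all genes. dm/fl cells saw 6 of 34 genes rise and 6 fall, beside 3.45% and 6.88% of all genes tested, with a median log2 difference of -0.17 for the members and -0.02 for all genes. In dm/- cells 13 of 34 rose and 1 fell, beside 3.68% and 2.44% of all genes tested, with a median log2 difference of 0.23 for the members and 0.00 for all genes. For D164A/- cells, the 0 that fell is from limma. At an unadjusted p under 0.05, in either direction, 15 of the 34 passed, a count not set beside all genes here. There edgeR on whole reads called 13 of the 34 in all, beside 551 of the 13754 genes tested. A gene that entered the test only because a treated or untreated group was high had to differ somewhere, so these counts are descriptions of the list. Fitted on only the 4 samples of each comparison, the total was 39 calls, 30 of the 75 were among them, and no gene of the table was called in D164A/- or ΔC/fl cells.

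By class, the fibrillar genes had medians of -0.12 to 1.44 over the 7 genotypes, the lowest in dm/fl cells, beside -0.03 to 0.03 for all genes tested. The basement membrane medians ran from -0.02 to 0.95 and those of the others from -0.30 to 1.10. Fibrillar calls numbered 4 of 10 tested in fl/fl, 4 in D164A/fl and 3 in D164A/- cells. There were 4 in ΔC/fl, 2 in ΔC/-, 5 in dm/fl and 6 in dm/- cells. Of the 8 basement membrane genes, 3, 1 and 1 were called in fl/fl, D164A/fl and D164A/- cells and 3, 2, 3 and 3 in ΔC/fl, ΔC/-, dm/fl and dm/- cells. Of the 16 others tested, the numbers in the same order were 1, 9, 6, 4, 2, 4 and 5. Of all genes tested, 6.25%, 3.38%, 4.06%, 7.74%, 6.55%, 10.3% and 6.12% were called in that order, in either direction.

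**Figure D2:**
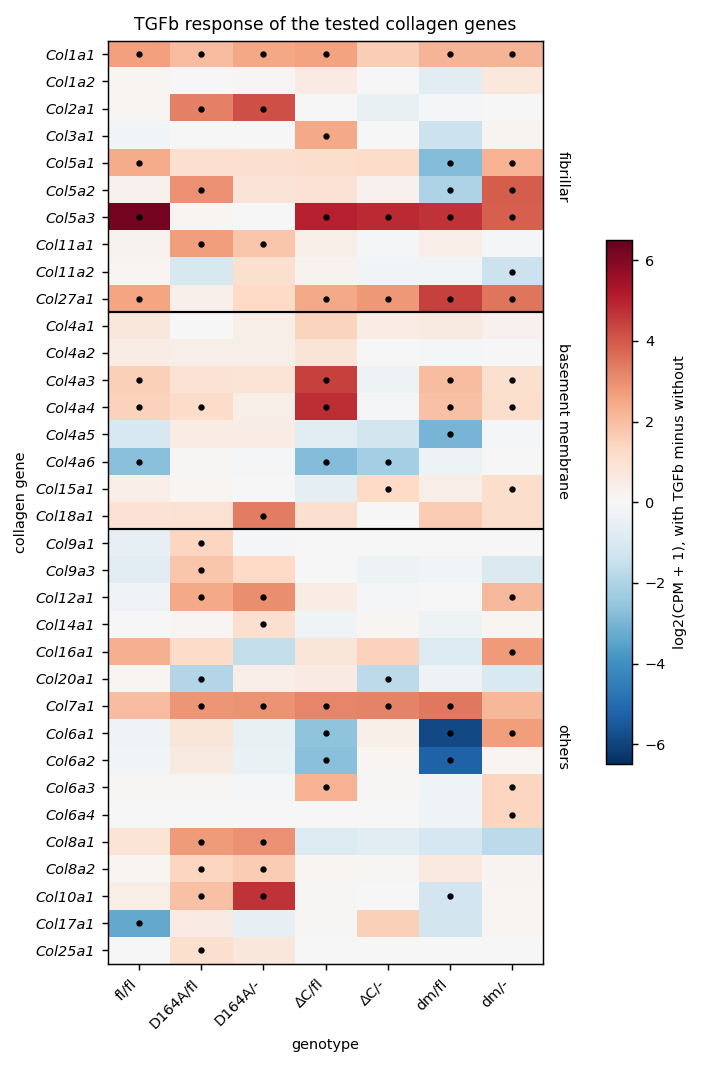
Log2 difference with TGFb, on the log2(CPM + 1) scale, of each tested collagen gene (vertical axis, by class) in each of the 7 genotypes (horizontal axis), with a dot on each called difference and red for higher with TGFb. Col1a1 was called higher in 6 genotypes and Col4a6 lower in 3, with -2.72 in fl/fl cells.

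Col1a1 (Entrez gene 12842, chromosome 11, 94936224 to 94953042; all positions are from the RefSeq annotation of GRCm38.p6) encodes the chain that makes up most of the type I fibre. It rose from 0.604 and 0.449 to 7.98 and 9.599 CPM in fl/fl cells (log2 difference 2.68, SE 0.56, adjusted p 0.0012) and from 0.920 and 0.965 to 5.71 and 8.35 CPM in D164A/fl cells (log2 difference 2.03, SE 0.56, adjusted p 0.029). Col1a1 also rose from 3.09 and 3.43 to 35.0 and 15.6 CPM in D164A/- cells (log2 difference 2.52, SE 0.56, adjusted p 0.0034) and from 7.60 and 4.25 to 70.9 and 23.0 CPM in ΔC/fl cells (log2 difference 2.63, SE 0.56, adjusted p 0.0014). In the dm lines it rose from 1.86 and 3.15 to 11.8 and 19.3 CPM in dm/fl cells (log2 difference 2.22, SE 0.56, adjusted p 0.0052) and from 1.53 and 0.813 to 7.65 and 10.5 CPM in dm/- cells (log2 difference 2.22, SE 0.56, adjusted p 0.009). Both treated libraries lay above both untreated ones in each of these 6 genotypes. They did so too in ΔC/- cells, where the values were 2.83 and 2.67 CPM without and 8.41 and 12.7 CPM with TGFb and the test missed the threshold (log2 difference 1.60, SE 0.56, adjusted p 0.073). The Col1a1 call ended in D164A/fl cells without untreated replicate 1 (adjusted p 0.22), without untreated replicate 2 (0.13), without treated replicate 1 (0.088) or without treated replicate 2 (0.29). It also ended in D164A/- cells without untreated replicate 1 (adjusted p 0.051) or without treated replicate 1 (0.13) and in ΔC/fl cells without treated replicate 1 (adjusted p 0.12). The dm calls ended in dm/fl cells without untreated replicate 1 (adjusted p 0.094) or without treated replicate 2 (0.1) and in dm/- cells without untreated replicate 2 (adjusted p 0.13) or without treated replicate 2 (0.11). Col1a2, the partner chain of the type I fibre, reached 1 CPM in 16 of 56 samples, against 42 for Col1a1. Where both did, in 15 samples, Col1a1 stood at 0.362 to 19.9 times Col1a2 per kb.

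Col5a3 (Entrez gene 53867, chromosome 9, 20770050 to 20815117) encodes a chain of type V collagen, which sits in the core of thin fibres. It rose from 2.13 and 1.35 to 147 and 274 CPM in fl/fl cells (log2 difference 6.22, SE 0.62, adjusted p 5.9e-09) and from 5.76 and 6.82 to 472 and 124 CPM in ΔC/fl cells (log2 difference 5.07, SE 0.62, adjusted p 4.2e-07). Col5a3 further rose from 0.155 and 0.0944 to 27.4 and 35.4 CPM in ΔC/- cells (log2 difference 4.84, SE 0.62, adjusted p 1.2e-06) and from 2.36 and 1.08 to 70.2 and 63.1 CPM in dm/fl cells (log2 difference 4.67, SE 0.62, adjusted p 7.8e-07), and from 0.0611 and 0 to 7.27 and 26.6 CPM in dm/- cells (log2 difference 3.87, SE 0.62, adjusted p 4.2e-05). Every treated library of these 5 genotypes was above every untreated library of the same genotype. In D164A/fl cells the values were 0.0354 and 0.0322 CPM without and 0.0371 and 0.233 CPM with TGFb, and in D164A/- cells 0 and 0 and 0.0441 and 0 CPM. Apart from D164A/fl with TGFb replicate 2 these values were under the floor. The difference from the fl/fl response was tested and was -6.09, SE 0.87, adjusted p 2.1e-05 in D164A/fl and -6.19, SE 0.87, adjusted p 1.0e-05 in D164A/- cells, comparisons that share the fl/fl samples. By edgeR neither difference was called.

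Col27a1 (Entrez gene 373864, chromosome 4, 63214009 to 63334991) encodes a fibrillar chain known from cartilage. It rose from 0.362 and 0.823 to 6.39 and 10.8 CPM in fl/fl cells (log2 difference 2.57, SE 0.44, adjusted p 8.3e-05) and from 0.320 and 0.571 to 8.12 and 6.08 CPM in ΔC/fl cells (log2 difference 2.48, SE 0.44, adjusted p 1.3e-04). Col27a1 also rose from 0.854 and 0.535 to 10.9 and 10.9 CPM in ΔC/- cells (log2 difference 2.82, SE 0.44, adjusted p 3.2e-05) and from 0.559 and 0.542 to 24.5 and 45 CPM in dm/fl cells (log2 difference 4.46, SE 0.44, adjusted p 2.6e-09). The highest levels were in dm/- cells, where it went from 7.79 and 3.32 to 72.1 and 65.6 CPM (log2 difference 3.50, SE 0.44, adjusted p 7.2e-07). Treated and untreated libraries did not overlap in these 5 genotypes. Col27a1 was at 0.0354 and 0 CPM without and 0.186 and 0.388 CPM with TGFb in D164A/fl cells (log2 difference 0.33, SE 0.44, adjusted p 0.87) and at 0.116 and 0.229 CPM without and 1.81 and 1.98 CPM with TGFb in D164A/- cells (log2 difference 1.30, SE 0.44, adjusted p 0.091). The tested difference from the fl/fl response was -2.24, SE 0.62, adjusted p 0.031 in D164A/fl cells. It was no longer called without fl/fl untreated replicate 1 (adjusted p 0.14), without fl/fl treated replicate 2 (0.21), without D164A/fl untreated replicate 1 (0.12), without D164A/fl untreated replicate 2 (0.075), without D164A/fl treated replicate 1 (0.12), without D164A/fl treated replicate 2 (0.078), with a pseudocount of 0.1 or by edgeR.

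**Figure D3:**
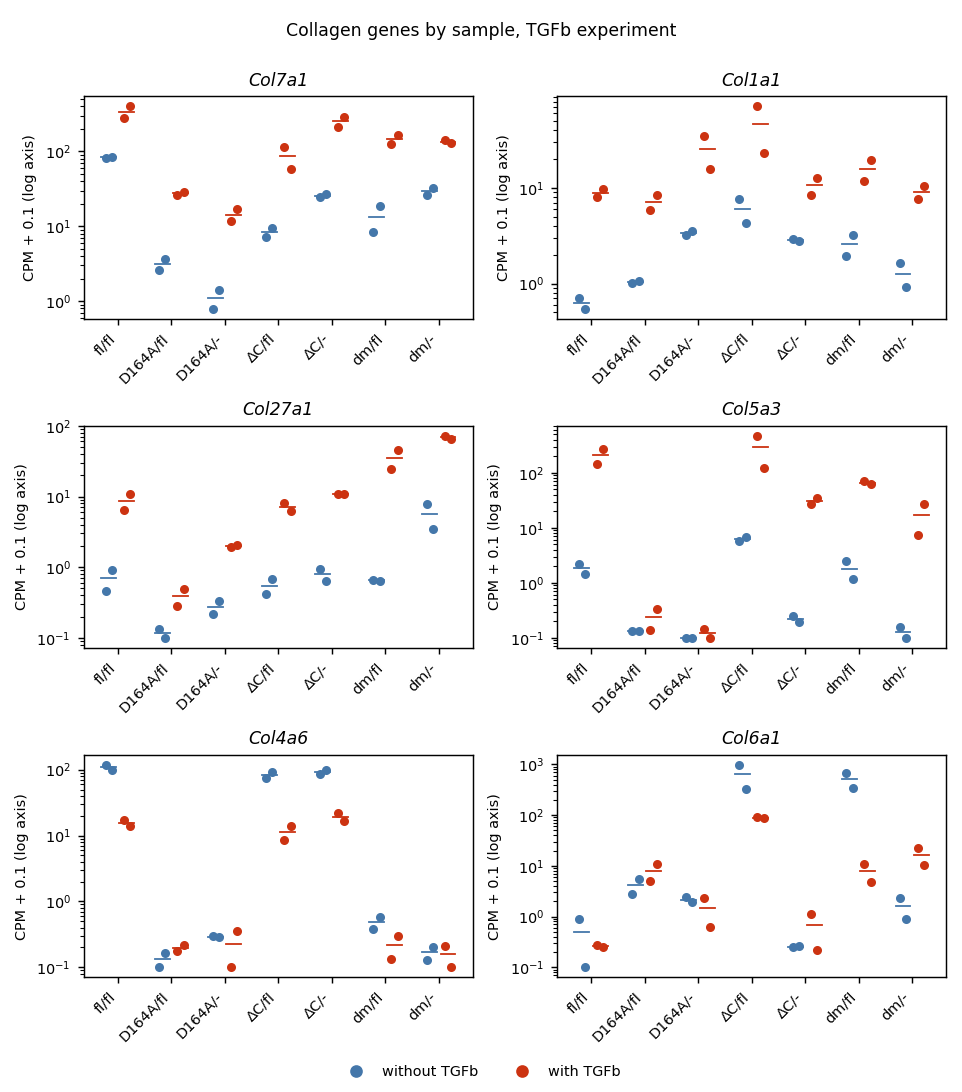
CPM of Col7a1, Col1a1, Col27a1, Col5a3, Col4a6 and Col6a1 in each library of the TGFb experiment, on a log axis, with untreated and treated libraries of the 7 genotypes side by side and a short line at each mean. Col5a3 with TGFb reached 472 CPM in ΔC/fl cells and stayed at 0.0441 and 0 CPM in D164A/- cells.

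The promoters of Col5a3 and Col27a1 are printed from 250 bases before to 50 bases after the transcript start, 5' to 3' on the gene's strand, as RefSeq gives it for GRCm38.p6. The start used there need not be the outer end of the gene: it lies inside the gene by 1403 bases in Col27a1, 185 in Col4a4, 63 in Col4a1 and 50 in Col5a3. Col5a3 lies at chromosome 9, 20815018 to 20815317, minus strand, and Col27a1 at chromosome 4, 63215162 to 63215461, plus strand. Capitals mark 3 motifs on either strand: CAGAC or GTCTG, the box bound by SMAD proteins, TGANTCA, the AP-1 site, and GGGCGG or CCGCCC, the GC box of Sp1. Of 27025 promoters cut the same way, 49.7% hold CAGAC, 7.93% TGANTCA and 35.9% GGGCGG. Of the 34 collagen promoters found, 17 hold CAGAC, 1 (Col6a1) holds TGANTCA and 22 hold GGGCGG. A match describes the sequence and is not a bound site. Promoters of Col1a1, Col2a1, Col4a3, Col5a2, Col9a3, Col12a1, Col14a1, Col22a1 and Col26a1 were not used here.

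Col5a3: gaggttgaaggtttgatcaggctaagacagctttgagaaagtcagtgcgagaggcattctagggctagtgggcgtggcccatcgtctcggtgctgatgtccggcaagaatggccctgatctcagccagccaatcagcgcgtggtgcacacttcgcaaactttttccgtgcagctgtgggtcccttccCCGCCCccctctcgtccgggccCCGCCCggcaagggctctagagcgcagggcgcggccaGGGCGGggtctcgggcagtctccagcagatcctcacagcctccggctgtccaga

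Col27a1: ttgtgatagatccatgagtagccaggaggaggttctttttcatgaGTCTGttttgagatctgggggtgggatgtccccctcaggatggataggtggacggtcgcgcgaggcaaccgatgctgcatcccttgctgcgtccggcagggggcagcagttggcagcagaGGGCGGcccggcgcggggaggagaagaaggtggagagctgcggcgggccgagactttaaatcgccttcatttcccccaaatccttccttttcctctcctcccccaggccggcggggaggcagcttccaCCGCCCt

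Col5a1 and Col5a2 encode the other chains of type V collagen, and both went opposite ways in different lines. Col5a1 (Entrez gene 12831, chromosome 2, 27886381 to 28039510) rose from 2.25 and 0.599 to 9.49 and 13.5 CPM in fl/fl cells (log2 difference 2.43, SE 0.65, adjusted p 0.014) and from 0.0917 and 0 to 2.05 and 7.04 CPM in dm/- cells (log2 difference 2.24, SE 0.65, adjusted p 0.027). It fell from 207 and 139.7 to 36.6 and 14.2 CPM in dm/fl cells (log2 difference -2.84, SE 0.65, adjusted p 0.0021). In each of the 3 the treated and untreated libraries were apart. The Col5a1 call ended in fl/fl cells without untreated replicate 2 (adjusted p 0.23), without treated replicate 1 (0.0504) or without treated replicate 2 (0.16). It also ended in dm/fl cells without treated replicate 2 (adjusted p 0.094) and in dm/- cells without untreated replicate 1 (adjusted p 0.12), without untreated replicate 2 (0.17) or without treated replicate 2 (0.4). Untreated ΔC/fl cells had 246 and 127 CPM and treated ones 678 and 233 CPM, with overlapping libraries (log2 difference 1.16, SE 0.65, adjusted p 0.38). Levels were low in the rest, with 0.582 and 0.315 CPM without and 2.43 and 2.25 CPM with TGFb in ΔC/- cells, 0.248 and 0.450 CPM without and 1.67 and 2.10 CPM with TGFb in D164A/fl cells and 0 and 0.0381 CPM without and 0.705 and 1.61 CPM with TGFb in D164A/- cells.

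Col5a2 (Entrez gene 12832, chromosome 1, 45374331 to 45503282) was high in dm/fl cells alone. There it fell from 640.2 and 500.2 to 265 and 75.6 CPM (log2 difference -1.99, SE 0.48, adjusted p 0.0034). It rose from 0.566 and 1.67 to 11.1 and 19.7 CPM in D164A/fl cells (log2 difference 2.95, SE 0.48, adjusted p 1.1e-04) and from 2.11 and 2.12 to 33.3 and 63.2 CPM in dm/- cells (log2 difference 3.91, SE 0.48, adjusted p 4.8e-07). Libraries with and without TGFb were apart in all 3 genotypes. Col5a2 lost its call in dm/fl cells without untreated replicate 1 (adjusted p 0.061), without treated replicate 2 (log2 difference -1.09, adjusted p 0.3) or by edgeR. The values were 0.0403 and 0.0374 CPM without and 0.133 and 0.441 CPM with TGFb in fl/fl cells and 0 and 0 CPM without and 0.705 and 0.880 CPM with TGFb in D164A/- cells. Col5a2 stood at 0.240 and 0.381 CPM without and 2.24 and 0.979 CPM with TGFb in ΔC/fl cells and 0.155 and 0.189 CPM without and 0.810 and 0.0790 CPM with TGFb in ΔC/- cells, with no call in these 4 genotypes.

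Of the remaining fibrillar genes, Col2a1 and Col11a1 were called in both D164A lines. Col2a1, the main fibrillar chain of cartilage, rose by a log2 difference of 3.30, SE 0.40, adjusted p 1.6e-06 in D164A/fl and 4.20, SE 0.40, adjusted p 4.9e-09 in D164A/- cells, to 6.72 and 15.9 and to 61.1 and 9.35 CPM. Col11a1, a chain of the thin cartilage fibre, rose by 2.72, SE 0.33, adjusted p 1.3e-06 and 1.79, SE 0.33, adjusted p 3.2e-04 in the same lines, to 301 and 422 and to 1393 and 852 CPM. Col11a2, a further chain of type XI collagen, was called in dm/- cells alone, with -1.41, SE 0.43, adjusted p 0.034. That Col11a2 call ended without untreated replicate 1 (log2 difference -0.85, adjusted p 0.5), without treated replicate 2 (0.42), with a pseudocount of 0.1, by edgeR or with the GC trend removed. Col3a1, the chain of the reticular fibre, rose in ΔC/fl cells from 34.8 and 7.84 to 184 and 51.8 CPM (log2 difference 2.47, SE 0.75, adjusted p 0.03). The Col3a1 call ended without untreated replicate 2 (log2 difference 1.46, adjusted p 0.52), without treated replicate 1 (log2 difference 1.57, adjusted p 0.53), with a pseudocount of 0.1 or by edgeR.

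The basement membrane genes include the 6 chains of type IV collagen, whose genes lie head to head in pairs. Col4a1 and Col4a2 encode the chains found in nearly every basement membrane. Their annotated genes on chromosome 8 (11198423 to 11312889, minus strand, Entrez gene 12826, and 11312805 to 11449287, plus strand, Entrez gene 12827) start 84 bases apart. The genes overlap over that stretch, as do Col4a3 and Col4a4 over theirs, and whether the counting used the strand is not given in the sources used here. Col4a1 stood at 42.0 and 86.0 CPM without and 77.1 and 132 CPM with TGFb in fl/fl cells (log2 difference 0.74, SE 0.65, adjusted p 0.91) and at 355 and 341 CPM without and 1439 and 628 CPM with TGFb in ΔC/fl cells (log2 difference 1.45, SE 0.65, adjusted p 0.21). It was at 199 and 203 CPM without and 201 and 404 CPM with TGFb in ΔC/- cells, 79.1 and 119 CPM without and 128 and 170.2 CPM with TGFb in dm/fl cells and 95.1 and 89.6 CPM without and 123 and 104 CPM with TGFb in dm/- cells. In the D164A lines Col4a1 was low, at 2.62 and 3.57 CPM without and 1.82 and 4.74 CPM with TGFb in D164A/fl cells and 0.0772 and 0.571 CPM without and 0.573 and 0.806 CPM with TGFb in D164A/- cells. Neither Col4a1 nor Col4a2 was called in any TGFb response by limma.

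Col4a2 had its high and low values in the same lines as Col4a1. It was at 77.0 and 143 CPM without and 117 and 191 CPM with TGFb in fl/fl cells (log2 difference 0.51, SE 0.64, adjusted p 1) and at 232 and 253 CPM without and 648 and 298 CPM with TGFb in ΔC/fl cells (log2 difference 0.85, SE 0.64, adjusted p 0.59). Col4a2 was at 203 and 201 CPM without and 152 and 284 CPM with TGFb in ΔC/- cells, 107 and 161 CPM without and 106 and 147 CPM with TGFb in dm/fl cells and 112 and 86.5 CPM without and 117 and 80.3 CPM with TGFb in dm/- cells. Its D164A values were 1.84 and 4.66 CPM without and 2.82 and 6.37 CPM with TGFb in D164A/fl cells and 0.347 and 0.419 CPM without and 0.794 and 0.770 CPM with TGFb in D164A/- cells. Per kb, Col4a1 stood at 0.384 to 2.17 times Col4a2, with a median of 0.984, over the 49 samples in which both reached 1 CPM. Their promoters, at chromosome 8, 11312777 to 11313076, minus strand, and chromosome 8, 11312555 to 11312854, plus strand, share 78 bases.

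Col4a1: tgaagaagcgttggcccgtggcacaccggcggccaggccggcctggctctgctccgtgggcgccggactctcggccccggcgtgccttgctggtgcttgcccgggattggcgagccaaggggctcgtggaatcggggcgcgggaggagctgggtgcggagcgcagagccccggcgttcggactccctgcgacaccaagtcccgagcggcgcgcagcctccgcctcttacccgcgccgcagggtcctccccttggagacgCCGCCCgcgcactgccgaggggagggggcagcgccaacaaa

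Col4a2: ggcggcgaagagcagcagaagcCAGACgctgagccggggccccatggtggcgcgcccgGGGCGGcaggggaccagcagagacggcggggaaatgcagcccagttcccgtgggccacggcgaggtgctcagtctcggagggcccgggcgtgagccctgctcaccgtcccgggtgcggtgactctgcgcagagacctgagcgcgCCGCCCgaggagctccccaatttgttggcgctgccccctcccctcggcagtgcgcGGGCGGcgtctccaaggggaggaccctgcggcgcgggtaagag

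Col4a3 and Col4a4 encode chains of the specialised membranes of kidney, lung and inner ear. Col4a3 (Entrez gene 12828, chromosome 1, 82586921 to 82722059) and Col4a4 (Entrez gene 12829, chromosome 1, 82448419 to 82587034) start 113 bases apart. Col4a3 rose from 0.604 and 0.749 to 3.77 and 3.86 CPM in fl/fl cells (log2 difference 1.52, SE 0.30, adjusted p 5.1e-04) and from 0.680 and 0.222 to 38.5 and 24.2 CPM in ΔC/fl cells (log2 difference 4.46, SE 0.30, adjusted p 7.7e-13). It also rose from 0.0621 and 0.0956 to 3.27 and 3.52 CPM in dm/fl cells (log2 difference 2.03, SE 0.30, adjusted p 4.7e-06) and from 0.214 and 0.106 to 1.33 and 1.45 CPM in dm/- cells (log2 difference 1.04, SE 0.30, adjusted p 0.023). Libraries with and without TGFb did not overlap in these 4 genotypes. The Col4a3 call ended in dm/- cells without untreated replicate 1 (adjusted p 0.091), without untreated replicate 2 (0.18), without treated replicate 1 (0.088) or without treated replicate 2 (0.15). No call was made for Col4a3 at 0.955 and 1.93 CPM without and 3.90 and 3.34 CPM with TGFb in D164A/fl cells (log2 difference 0.95, SE 0.30, adjusted p 0.065), 0.0386 and 0.0381 CPM without and 0.617 and 1.25 CPM with TGFb in D164A/- cells (log2 difference 0.88, SE 0.30, adjusted p 0.095) or 1.59 and 1.13 CPM without and 1.00 and 0.790 CPM with TGFb in ΔC/- cells (log2 difference -0.31, SE 0.30, adjusted p 0.71).

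Col4a4 rose from 0.765 and 0.711 to 3.28 and 4.52 CPM in fl/fl cells (log2 difference 1.48, SE 0.21, adjusted p 4.6e-06) and from 0.425 and 0.547 to 2.52 and 2.21 CPM in D164A/fl cells (log2 difference 1.18, SE 0.21, adjusted p 3.8e-04). Col4a4 rose most from 1.44 and 0.508 to 72.3 and 37.1 CPM in ΔC/fl cells (log2 difference 4.78, SE 0.21, adjusted p 2.1e-17). In the dm lines Col4a4 rose from 0.0932 and 0.0637 to 3.02 and 2.93 CPM in dm/fl cells (log2 difference 1.88, SE 0.21, adjusted p 3.7e-08) and from 0.214 and 0.212 to 1.74 and 1.62 CPM in dm/- cells (log2 difference 1.14, SE 0.21, adjusted p 3.1e-04). All 5 had treated libraries above untreated ones, and no library left out ended a Col4a4 call. ΔC/- cells had 1.203 and 0.787 CPM without and 0.887 and 0.869 CPM with TGFb (log2 difference -0.08, SE 0.21, adjusted p 0.97), and D164A/- cells 0.0386 and 0 and 0.220 and 0.440 CPM. The ΔC/- response differed from that of ΔC/fl cells by -4.77, SE 0.42, adjusted p 2.0e-09 for Col4a3 and -4.86, SE 0.30, adjusted p 3.5e-13 for Col4a4. Per kb, Col4a3 was at 0.630 to 2.01 times Col4a4 in the 13 samples where both reached 1 CPM. The Col4a4 promoter lies at chromosome 1, 82586800 to 82587099, minus strand.

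Col4a4: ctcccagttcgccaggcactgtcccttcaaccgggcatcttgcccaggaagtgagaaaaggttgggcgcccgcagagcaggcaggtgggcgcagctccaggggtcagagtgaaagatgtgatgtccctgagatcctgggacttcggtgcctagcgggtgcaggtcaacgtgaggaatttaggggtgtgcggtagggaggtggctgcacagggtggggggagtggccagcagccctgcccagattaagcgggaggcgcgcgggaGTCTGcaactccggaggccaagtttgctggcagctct

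Col4a5 (Entrez gene 12830, chromosome X, 141475370 to 141689236) and Col4a6 (Entrez gene 94216, chromosome X, 141165403 to 141474095) encode the chains of the membrane under epithelia and start 1275 bases apart on opposite strands. Col4a5 fell from 280.4 and 251 to 30.9 and 32.2 CPM in dm/fl cells (log2 difference -3.03, SE 0.42, adjusted p 2.0e-06). It was at 97.7 and 80.7 CPM without and 41.1 and 45.1 CPM with TGFb in fl/fl cells (log2 difference -1.03, SE 0.42, adjusted p 0.19) and at 181 and 162 CPM without and 75.4 and 71.2 CPM with TGFb in ΔC/- cells (log2 difference -1.21, SE 0.42, adjusted p 0.07), with lower treated libraries in both but no call. Elsewhere Col4a5 was at 82.2 and 87.8 CPM without and 116 and 122 CPM with TGFb in D164A/fl cells, 147 and 173 CPM without and 265 and 193 CPM with TGFb in D164A/- cells, 457 and 229 CPM without and 305 and 126 CPM with TGFb in ΔC/fl cells and 157 and 147 CPM without and 251 and 80.8 CPM with TGFb in dm/- cells. Only Col4a5, Col18a1 and Col12a1 reached 1 CPM in all 56 samples. Col4a6 was present in fl/fl, ΔC/fl and ΔC/- cells and fell in each. It fell from 117 and 99.4 to 17.1 and 13.98 CPM in fl/fl cells (log2 difference -2.72, SE 0.34, adjusted p 4.7e-07) and from 75.6 and 91.4 to 8.41 and 14.04 CPM in ΔC/fl cells (log2 difference -2.82, SE 0.34, adjusted p 2.8e-07). Col4a6 further fell from 86.0 and 97.3 to 22.1 and 16.4 CPM in ΔC/- cells (log2 difference -2.20, SE 0.34, adjusted p 2.4e-05). No treated library of the 3 reached any untreated library of its genotype. The basal list also summed lower with TGFb in fl/fl cells, from 680 and 678 to 167 and 218 CPM. In ΔC/fl cells it went from 298 and 581 to 40.5 and 28.8 CPM. ΔC/- libraries overlapped, at 33.8 and 36.2 CPM without and 20.5 and 46.7 CPM with TGFb. The part of these basal genes was not tested. In the other lines Col4a6 lay at 0 and 0.0643 CPM without and 0.0742 and 0.116 CPM with TGFb in D164A/fl cells, 0.193 and 0.190 CPM without and 0 and 0.257 CPM with TGFb in D164A/- cells, 0.280 and 0.478 CPM without and 0.0312 and 0.197 CPM with TGFb in dm/fl cells and 0.0306 and 0.106 CPM without and 0.114 and 0 CPM with TGFb in dm/- cells. Per kb, Col4a5 stood at 0.628 to 36.9 times Col4a6 in the 24 samples with both at 1 CPM, and the other 32 samples had Col4a5 alone.

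**Figure D4:**
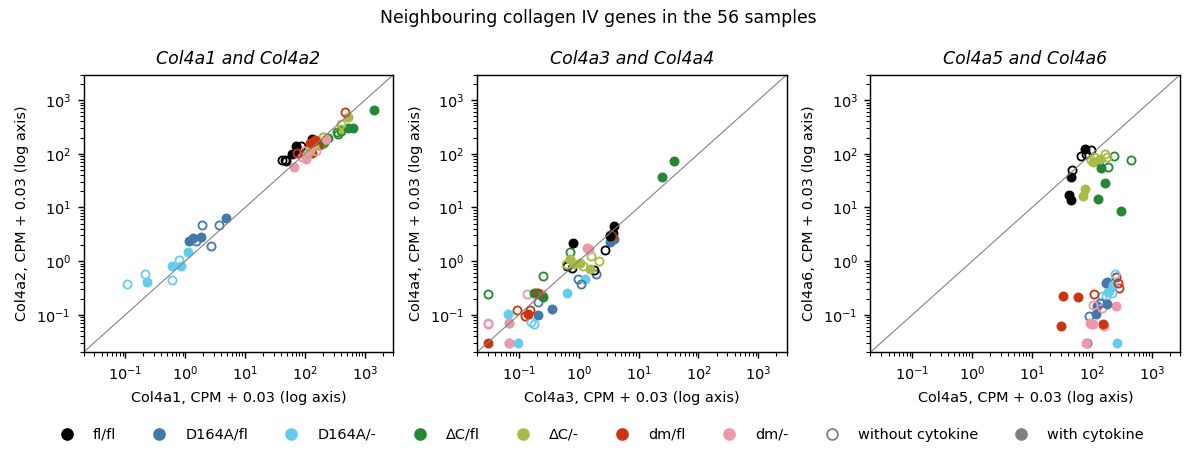
CPM of the type IV collagen genes in the 56 samples, each gene plotted against its head-to-head partner on log axes, with genotypes in colour, open marks for untreated cells and a line of equal values. Col4a1 and Col4a2 lie along the line, with a median ratio of 0.984 per kb, while Col4a6 drops away from Col4a5, which reaches 36.9 times its level per kb where both were at 1 CPM.

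Col18a1 (Entrez gene 12822, chromosome 10, 77052178 to 77166530) encodes the collagen whose end fragment is endostatin, and was among the 3 most abundant members by mean CPM and by CPM per kb. It rose from 30.8 and 50.4 to 412 and 407 CPM in D164A/- cells (log2 difference 3.34, SE 0.76, adjusted p 0.0041). The Col18a1 call ended without untreated replicate 1 (adjusted p 0.098). Elsewhere it was at 373 and 223 CPM without and 499 and 619 CPM with TGFb in fl/fl cells, 303 and 351 CPM without and 561 and 757 CPM with TGFb in D164A/fl cells and 236 and 282 CPM without and 613 and 471 CPM with TGFb in ΔC/fl cells. Col18a1 was at 259 and 253 CPM without and 245 and 282 CPM with TGFb in ΔC/- cells, 168 and 275 CPM without and 599 and 775 CPM with TGFb in dm/fl cells and 282 and 179 CPM without and 506 and 501 CPM with TGFb in dm/- cells. Treated libraries were above untreated ones in each of these but ΔC/- cells, without a call. Col15a1, its relative in the membranes of muscle and vessels, rose by 1.28, SE 0.29, adjusted p 0.0027 in ΔC/- and 1.15, SE 0.29, adjusted p 0.0076 in dm/- cells. Those Col15a1 calls ended in ΔC/- cells without untreated replicate 1 (adjusted p 0.058) or without treated replicate 2 (0.072) and in dm/- cells without untreated replicate 2 (adjusted p 0.17) or without treated replicate 2 (0.079), and both ended with a pseudocount of 0.1 and by edgeR.

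Among the others, Col7a1 (Entrez gene 12836, chromosome 9, 108953586 to 108984875) encodes the anchoring fibril that ties epithelium to the tissue below. It rose from 2.48 and 3.51 to 26.1 and 29.0 CPM in D164A/fl cells (log2 difference 2.85, SE 0.72, adjusted p 0.014) and from 0.695 and 1.29 to 11.6 and 16.9 CPM in D164A/- cells (log2 difference 2.93, SE 0.72, adjusted p 0.0087). Col7a1 also rose from 6.997 and 9.49 to 115 and 57.3 CPM in ΔC/fl cells (log2 difference 3.17, SE 0.72, adjusted p 0.0025) and from 24.4 and 26.8 to 213 and 293 CPM in ΔC/- cells (log2 difference 3.24, SE 0.72, adjusted p 0.0025). The remaining call was a rise from 8.39 and 18.4 to 126 and 166 CPM in dm/fl cells (log2 difference 3.43, SE 0.72, adjusted p 7.4e-04). The libraries were also apart in fl/fl cells, at 82.8 and 83.6 CPM without and 279 and 399 CPM with TGFb, and in dm/- cells, at 26.4 and 32.5 and 141 and 129 CPM. There the tests missed the threshold, with 1.99, SE 0.72, adjusted p 0.1 and 2.16, SE 0.72, adjusted p 0.06. The Col7a1 call ended in D164A/fl cells without untreated replicate 1 (adjusted p 0.18), without untreated replicate 2 (0.057), without treated replicate 1 (0.087) or without treated replicate 2 (0.13). It further ended in D164A/- cells without untreated replicate 1 (adjusted p 0.13) or without treated replicate 2 (0.12) and in ΔC/fl cells without treated replicate 1 (adjusted p 0.081). The Col7a1 promoter lies at chromosome 9, 108953336 to 108953635, plus strand.

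Col7a1: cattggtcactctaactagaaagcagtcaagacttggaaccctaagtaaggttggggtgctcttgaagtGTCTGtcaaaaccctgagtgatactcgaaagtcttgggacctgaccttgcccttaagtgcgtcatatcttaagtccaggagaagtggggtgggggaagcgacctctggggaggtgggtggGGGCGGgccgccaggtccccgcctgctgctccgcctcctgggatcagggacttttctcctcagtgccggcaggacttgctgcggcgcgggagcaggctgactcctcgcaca

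Col12a1 (Entrez gene 12816, chromosome 9, 79598987 to 79721141), a chain that sits on the surface of type I fibres, had the highest mean CPM of the members. It rose from 40.5 and 48.3 to 223 and 268 CPM in D164A/fl cells (log2 difference 2.44, SE 0.46, adjusted p 7.1e-04) and from 63.2 and 76.7 to 575 and 576 CPM in D164A/- cells (log2 difference 3.03, SE 0.46, adjusted p 2.0e-05). Col12a1 also rose from 445 and 381 to 1932 and 1621 CPM in dm/- cells (log2 difference 2.10, SE 0.46, adjusted p 0.0022). No library left out ended these calls, and the groups did not overlap. It was at 867 and 1093 CPM without and 768 and 876 CPM with TGFb in fl/fl cells (log2 difference -0.25, SE 0.46, adjusted p 1) and at 639.9 and 351 CPM without and 665 and 668 CPM with TGFb in ΔC/fl cells (log2 difference 0.49, SE 0.46, adjusted p 0.73). Col12a1 was at 91.0 and 88.0 CPM without and 93.7 and 70.1 CPM with TGFb in ΔC/- cells and 268 and 170.2 CPM without and 221 and 216 CPM with TGFb in dm/fl cells, with overlapping libraries in both. The response differed from that of fl/fl cells by 3.28, SE 0.65, adjusted p 0.0012 in D164A/- cells.

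Col8a1 (Entrez gene 12837, chromosome 16, 57624256 to 57754737), a short chain of the membrane under corneal and vessel endothelium, had the highest mean per kb. It rose from 11.04 and 12.0 to 81.7 and 87.6 CPM in D164A/fl cells (log2 difference 2.77, SE 0.62, adjusted p 0.0046) and from 0.347 and 0.838 to 5.16 and 23.1 CPM in D164A/- cells (log2 difference 2.95, SE 0.62, adjusted p 0.0017). The Col8a1 call ended in D164A/fl cells without untreated replicate 1 (adjusted p 0.07) or without treated replicate 2 (0.061) and in D164A/- cells without treated replicate 2 (adjusted p 0.18). No call was made at 372 and 318 CPM without and 672 and 613 CPM with TGFb in fl/fl cells, 966 and 820.4 CPM without and 529 and 444 CPM with TGFb in ΔC/fl cells and 1441 and 1274 CPM without and 1066 and 685 CPM with TGFb in ΔC/- cells. Col8a1 was at 341 and 307 CPM without and 196 and 119 CPM with TGFb in dm/fl cells and 28.9 and 43.7 CPM without and 5.87 and 17.2 CPM with TGFb in dm/- cells, again uncalled. Treated libraries were higher in fl/fl cells and lower in the ΔC and dm lines. Col8a2, the partner chain, rose by 1.42, SE 0.22, adjusted p 8.1e-05 in D164A/fl and 1.64, SE 0.22, adjusted p 3.6e-06 in D164A/- cells. By edgeR neither Col8a2 difference was called, and with the GC trend removed that in D164A/fl cells was not.

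Col10a1 (Entrez gene 12813, chromosome 10, 34389981 to 34397085), the short chain of hypertrophic cartilage, rose from 0 and 0.0322 to 3.56 and 2.10 CPM in D164A/fl cells (log2 difference 1.89, SE 0.34, adjusted p 4.6e-04) and from 0.0386 and 0.0381 to 48.9 and 13.4 CPM in D164A/- cells (log2 difference 4.69, SE 0.34, adjusted p 1.4e-11). It fell from 1.46 and 1.88 to 0.125 and 0.0986 CPM in dm/fl cells (log2 difference -1.26, SE 0.34, adjusted p 0.01). The libraries with and without TGFb were apart in all 3. Col10a1 lost its call in dm/fl cells without untreated replicate 2 (adjusted p 0.095), without treated replicate 1 (0.056) or without treated replicate 2 (0.072). It was at 0.0403 and 0 CPM without and 0.444 and 0.184 CPM with TGFb in fl/fl cells, 1.52 and 0.444 CPM without and 1.22 and 0.766 CPM with TGFb in ΔC/fl cells, 0.116 and 0.0944 CPM without and 0 and 0.158 CPM with TGFb in ΔC/- cells and 0 and 0 CPM without and 0 and 0.198 CPM with TGFb in dm/- cells. Col9a1 and Col9a3, chains that coat the cartilage fibre, rose in D164A/fl cells by 1.37, SE 0.36, adjusted p 0.021 and 1.80, SE 0.43, adjusted p 0.0084. The Col9a1 call ended without untreated replicate 1 (adjusted p 0.38), without treated replicate 2 (0.31), with a pseudocount of 0.1, by edgeR or with the GC trend removed. Col9a3 lost its call without untreated replicate 1 (log2 difference 1.19, adjusted p 0.45), without treated replicate 2 (0.28), with a pseudocount of 0.1, by edgeR or with the GC trend removed. Their partner chain Col9a2 stayed under 1 CPM in all 56 samples, with a highest value of 0.973 CPM.

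Col6a1 (Entrez gene 12833, chromosome 10, 76708792 to 76726044) encodes a chain of the beaded filament that surrounds fibroblasts. It fell from 969.7 and 321 to 91.7 and 86.4 CPM in ΔC/fl cells (log2 difference -2.63, SE 0.79, adjusted p 0.027) and from 689 and 342 to 10.9 and 4.70 CPM in dm/fl cells (log2 difference -5.88, SE 0.79, adjusted p 1.1e-06). Col6a1 rose from 2.26 and 0.778 to 22.0 and 10.2 CPM in dm/- cells (log2 difference 2.74, SE 0.79, adjusted p 0.025). Treated and untreated libraries were apart in the 3 genotypes. The Col6a1 call ended in ΔC/fl cells without untreated replicate 1 (adjusted p 0.37), without treated replicate 1 (0.14), without treated replicate 2 (0.12), with a pseudocount of 0.1 or by edgeR. It also ended in dm/- cells without untreated replicate 1 (adjusted p 0.059), without untreated replicate 2 (0.27), without treated replicate 1 (0.25), without treated replicate 2 (0.051) or by edgeR. Col6a1 was at 0.805 and 0 CPM without and 0.177 and 0.147 CPM with TGFb in fl/fl cells, 2.69 and 5.34 CPM without and 4.86 and 11.03 CPM with TGFb in D164A/fl cells, 2.28 and 1.83 CPM without and 2.25 and 0.513 CPM with TGFb in D164A/- cells and 0.155 and 0.157 CPM without and 1.04 and 0.119 CPM with TGFb in ΔC/- cells. Its partner Col6a2 fell, with log2 differences of -2.69, SE 0.83, adjusted p 0.031 in ΔC/fl and -5.24, SE 0.83, adjusted p 1.4e-05 in dm/fl cells. The Col6a2 call ended in ΔC/fl cells without untreated replicate 1 (adjusted p 0.39), without treated replicate 1 (0.13), without treated replicate 2 (0.15), with a pseudocount of 0.1 or by edgeR. Col6a3 rose by 2.26, SE 0.38, adjusted p 5.8e-05 in ΔC/fl and 1.40, SE 0.38, adjusted p 0.015 in dm/- cells, so in ΔC/fl cells it moved against Col6a1 and Col6a2. Col6a3 lost its call in dm/- cells without untreated replicate 1 (adjusted p 0.1), without untreated replicate 2 (0.094) or without treated replicate 2 (log2 difference 0.72, adjusted p 0.51), and in ΔC/fl cells by edgeR. Col6a4 was at 0.0917 and 0.106 CPM without and 1.67 and 2.08 CPM with TGFb in dm/- cells, a log2 difference of 1.38. Only those 2 treated libraries of the 56 reached 1 CPM, so Col6a4 entered the test through the group that was high and its difference is a description.

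In ΔC/fl and dm/fl cells, where Col6a1 and Col6a2 fell, the fibroblast list also summed lower with TGFb. The 10 genes summed to 888 and 419.9 CPM in untreated and 253 and 347 CPM in treated ΔC/fl cells, and to 685 and 422 and 119.6 and 85.0 CPM in dm/fl cells. The sums were 50.2 and 47.9 CPM without and 25.3 and 15.4 CPM with TGFb in ΔC/- cells, and 62.9 and 40.7 and 38.8 and 116 CPM in dm/- cells. They were 207 and 52.2 and 22.9 and 23.2 CPM in fl/fl, 101 and 111 and 94.0 and 88.5 CPM in D164A/fl and 109 and 99.4 and 122 and 77.8 CPM in D164A/- cells. Pdgfrb, the gene of the list with the highest mean CPM but a median of 0.859 CPM against 40.3 CPM for Pdgfra, was at 494 and 215 CPM without and 208 and 279 CPM with TGFb in ΔC/fl cells, 227 and 145 CPM without and 28.2 and 26.3 CPM with TGFb in dm/fl cells and 0.306 and 0.495 CPM without and 17.0 and 99.4 CPM with TGFb in dm/- cells. Pdgfra was at 239 and 90.9 CPM without and 40.4 and 62.5 CPM with TGFb in ΔC/fl cells, 302 and 163 CPM without and 86.9 and 54.1 CPM with TGFb in dm/fl cells and 5.13 and 6.65 CPM without and 12.1 and 15.2 CPM with TGFb in dm/- cells. When the lines were set up, fibroblasts were taken out by differential trypsinization, and 6 of the 10 genes, Thy1, Dpt, Lum, Fap, Pi16 and Mfap5, stayed under 1 CPM in all 56 samples. Of the other 4, Scara5 was lower in both treated libraries than in both untreated ones in ΔC/fl, dm/fl and dm/- cells. In dm/- cells it thus went against Pdgfrb, Pdgfra and Col6a1. The part of the 4 in the collagen results was not tested. Other lists moved too. The basal sums went from 298 and 581 to 40.5 and 28.8 CPM in ΔC/fl and from 425 and 551 to 211 and 409 CPM in dm/fl cells. In ΔC/fl cells the pericyte and smooth muscle sums rose from 39.0 and 34.5 to 136 and 69.2 CPM. The endothelial sums rose from 0.186 and 0.287 to 35.2 and 34.1 CPM in dm/fl cells. The part of these lists was not tested either.

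The remaining calls were few and spread over the lines. Col17a1, a transmembrane chain of the hemidesmosome, fell in fl/fl cells from 34.6 and 19.9 to 1.06 and 2.65 CPM (log2 difference -3.31, SE 0.61, adjusted p 2.4e-04). Col20a1, a FACIT chain (a type that binds to fibres), fell in D164A/fl cells from 11.8 and 4.82 to 1.34 and 1.28 CPM (log2 difference -1.90, SE 0.39, adjusted p 0.002) and in ΔC/- cells from 11.1 and 6.29 to 1.66 and 2.17 CPM (log2 difference -1.69, SE 0.39, adjusted p 0.0038). Col20a1 lost its call in D164A/fl cells without untreated replicate 1 (adjusted p 0.2) and in ΔC/- cells without untreated replicate 1 (adjusted p 0.13), without treated replicate 1 (0.052) or by edgeR. Col16a1, another FACIT chain, rose by 2.78, SE 0.78, adjusted p 0.02 in dm/- cells, a call that ended without untreated replicate 1 (adjusted p 0.068), without untreated replicate 2 (0.19), without treated replicate 1 (0.058) or without treated replicate 2 (0.16). Col14a1, a FACIT chain of tendon and skin, rose in D164A/- cells by 1.04, SE 0.16, adjusted p 1.5e-05. That call fell under the size threshold without untreated replicate 1 (log2 difference 0.83, adjusted p 0.0052) or without treated replicate 2 (log2 difference 0.88, adjusted p 0.003), and under the significance threshold with a pseudocount of 0.1 and by edgeR. Col25a1, a transmembrane chain of neurons, rose in D164A/fl cells by 1.02, SE 0.26, adjusted p 0.017. Col25a1 lost its call without untreated replicate 1 (adjusted p 0.5), without treated replicate 1 (0.093), without treated replicate 2 (0.15), with a pseudocount of 0.1, by edgeR, with the GC trend removed or when rescaled by the median of ratios.

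A further comparison asked whether the TGFb response itself differs between genotypes, through an interaction term for each gene. Set against fl/fl, 12 of 34 collagen genes differed in D164A/fl (3.81% of all genes tested) and 10 in D164A/- cells (4.28%). There were 4 in ΔC/fl (2.69%), 3 in ΔC/- (2.01%), 7 in dm/fl (4.04%) and 5 in dm/- cells (2.78%). These 6 comparisons share the fl/fl samples. With the deleted set against the floxed second allele, 2 genes differed for D164A (1.35%), 5 for ΔC (3.13%) and 9 for dm (7.31%). By edgeR the counts against fl/fl were 4, 2, 1, 1, 2 and 0 in the order given. Over all genes tested they were 285, 292, 94, 44, 107 and 165. Between the second alleles edgeR called 0, 2 and 7, beside 9, 118 and 593 of all genes. That made 19 collagen calls in all against 57 by limma. The most distant pair was Col6a1 in dm/- against dm/fl cells, at 8.62, SE 1.12, adjusted p 1.6e-06, where it rose in the former and fell in the latter. Col5a2 and Col5a1 split the same way, at 5.90, SE 0.68, adjusted p 2.0e-07 and 5.08, SE 0.93, adjusted p 2.6e-04. Col4a6, which fell in fl/fl cells, was lower than the floor or near it in the D164A and dm lines, so its interaction there, 2.81, SE 0.48, adjusted p 2.0e-04 for D164A/fl, compares a fall with a gene that is hardly present and was not called by edgeR. Col17a1 differed from fl/fl in 4 genotypes, the largest in ΔC/- cells at 4.88, SE 0.86, adjusted p 6.7e-04.

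Untreated cells were compared to see how far the lines differ before any cytokine. Over the 7 genotypes, 33 of 34 collagen genes differed in the untreated cells of the TGFb experiment by limma's F test (62.4% of all genes tested) and 31 of 34 in those of the Wnt3a experiment (57.3%). In the TGFb experiment the deleted and the floxed second allele differed in 9 genes for D164A (16.5%), 11 for ΔC (12%) and 15 for dm (16.1%). In the Wnt3a experiment they differed in 4 (3.21%), 11 (8.16%) and 12 genes (16.5%). Without dm/fl replicate 1, the library most similar to another genotype, the last count was 10 and without replicate 2 it was 20, and without ΔC/fl replicate 2 the ΔC count was 5. The median log2 difference of all genes in the dm comparison of the Wnt3a experiment was 0. It was -0.141 by edgeR and -0.023 when rescaled by the median of ratios.

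Col6a1 differed widely between the second alleles in both the ΔC and the dm lines. Untreated ΔC/fl cells of the TGFb experiment had 969.7 and 321 CPM and ΔC/- cells 0.155 and 0.157 CPM (-8.92, SE 0.79, adjusted p 2.4e-10). Untreated dm/fl cells had 689 and 342 and dm/- cells 2.26 and 0.778 CPM (-7.66, SE 0.79, adjusted p 3.0e-09). In the Wnt3a experiment Col6a1 was at 55.2 and 420.4 CPM in ΔC/fl, 0 and 0.0694 in ΔC/-, 392 and 98.4 in dm/fl and 0.188 and 0.554 in dm/- cells. No lines with the deleted allele reached those with the floxed allele in either experiment. Col1a2, Col3a1, Col5a1, Col6a1, Col6a2, Col6a3 and Col16a1 were called lower in both ΔC/- and dm/- cells in both experiments. Each of those comparisons called 8.16% to 16.5% of all genes tested, in either direction. How many of all genes were lower in every one of them was not counted, so the shared calls are a description. Col5a2 was called lower in dm/- cells in both, at 2.11 and 2.12 against 640.2 and 500.2 CPM in the TGFb experiment (-7.51, SE 0.48, adjusted p 8.1e-14). Fitted on only the samples compared, no gene of the table was called between the second alleles in the Wnt3a experiment. Of the 7 genes, Col1a2 lost its ΔC call in the TGFb experiment without ΔC/fl untreated replicate 2 (adjusted p 0.072) or without ΔC/- untreated replicate 1 (0.051). Col6a3 lost its dm call there without dm/fl untreated replicate 1 (adjusted p 0.069). In the Wnt3a experiment Col16a1 lost its ΔC call without ΔC/fl untreated replicate 2 (adjusted p 0.12) and its dm call without dm/fl untreated replicate 1 (log2 difference -1.45, adjusted p 0.26) or without dm/- untreated replicate 1 (0.074). Col16a1 there had a log2 difference of -4.60 without dm/fl untreated replicate 2, against -3.02 with it. There Col3a1 lost its ΔC call without ΔC/fl untreated replicate 2 (log2 difference -1.95, adjusted p 0.24), Col1a2 without ΔC/fl untreated replicate 2 (log2 difference -0.91, adjusted p 0.21) or without ΔC/- untreated replicate 1 (0.063), and Col6a3 its dm call without dm/fl untreated replicate 1 (adjusted p 0.071).

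The fibroblast list also summed lower in untreated ΔC/- and dm/- cells than in their floxed lines. In the TGFb experiment its 10 genes summed to 888 and 419.9 CPM in ΔC/fl against 50.2 and 47.9 CPM in ΔC/- cells, and to 685 and 422 CPM in dm/fl against 62.9 and 40.7 CPM in dm/- cells. In the Wnt3a experiment the sums were 176 and 507 against 33.9 and 31.4 CPM and 351 and 232 against 53.0 and 36.9 CPM. Pdgfrb, a receptor for PDGF, was at 494 and 215 CPM in untreated ΔC/fl and 0.0776 and 0 CPM in ΔC/- cells of the TGFb experiment, and at 227 and 145 and 0.306 and 0.495 CPM in dm/fl and dm/- cells. The 6 fibroblast genes named above were under 1 CPM here too, and the part of the others in these differences was not tested. In the TGFb experiment the basal list was lower, at 33.8 and 36.2 CPM in ΔC/- against 298 and 581 CPM in ΔC/fl cells. For dm/- cells it was 129 and 52.6 against 425 and 551 CPM in dm/fl cells. In the immune list only Cd68 ever reached 1 CPM. That list was higher, at 79.4 and 59.2 CPM in ΔC/- against 6.52 and 10.6 CPM in ΔC/fl cells. Its dm/- sums were 62.2 and 55.1 against 3.45 and 5.19 CPM in dm/fl cells. Both lists went the same ways in the Wnt3a experiment, and their part was not tested.

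**Figure D5:**
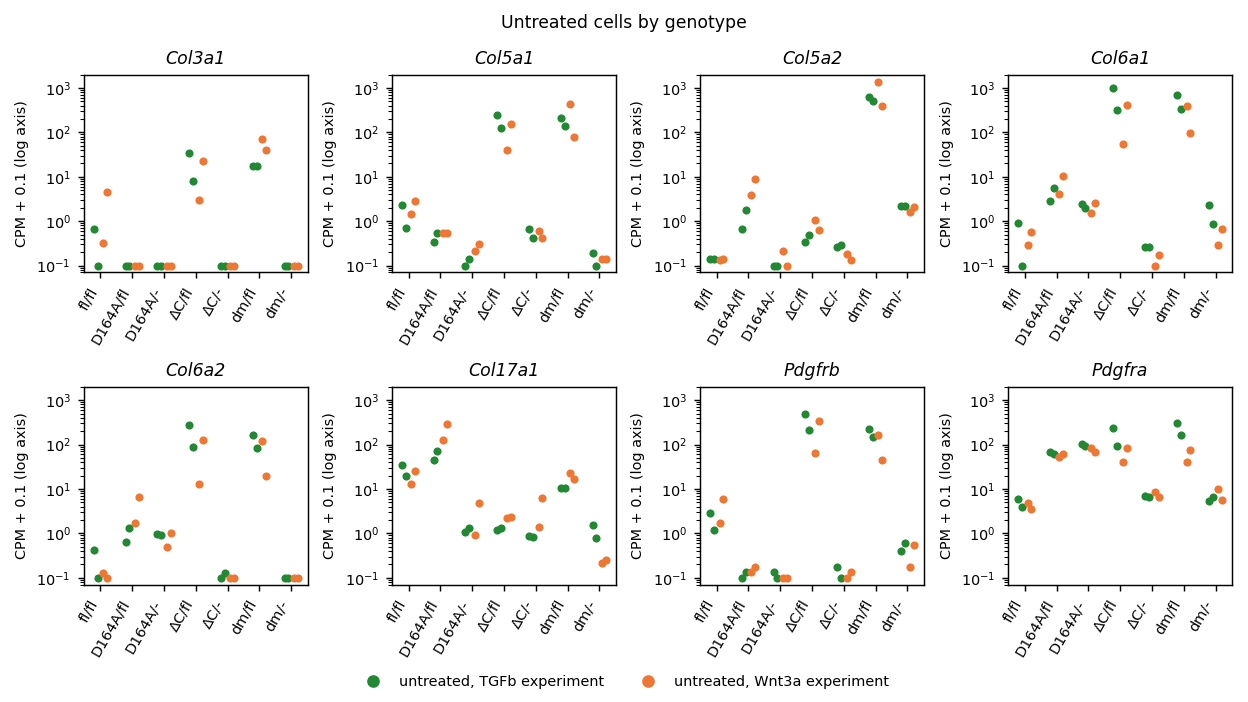
CPM of 6 collagen genes and of Pdgfrb and Pdgfra in untreated libraries of the 7 genotypes, on a log axis, with the cells of the TGFb and the Wnt3a experiment in separate colours. Col6a1 lies at 969.7 and 321 CPM in ΔC/fl and 689 and 342 CPM in dm/fl cells of the TGFb experiment and at 0.155 and 0.157 CPM in ΔC/- cells.

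Of the 9 genes called between the untreated D164A lines in the TGFb experiment, Col4a3, Col9a1, Col11a1 and Col18a1 were not called between the ΔC or the dm lines there. Col8a1 and Col17a1 were lower in both D164A/- and dm/- cells, while Col11a2, Col16a1 and Col20a1 differed in opposite directions for D164A and dm. Col9a1 was at 171 and 127 CPM in untreated D164A/- and 4.60 and 6.98 CPM in D164A/fl cells of the TGFb experiment (4.47, SE 0.36, adjusted p 2.5e-11), and no higher than 1.01 CPM in the untreated cells of the other lines there. Col11a1 was at 322 and 306 against 34.8 and 81.3 CPM (2.54, SE 0.33, adjusted p 3.7e-07). Col17a1 went the other way, at 0.965 and 1.26 against 45.9 and 72.8 CPM (-4.80, SE 0.61, adjusted p 2.5e-07). In the Wnt3a experiment Col9a1 was at 63.8 and 42.7 CPM in untreated D164A/- and 42.7 and 82.1 CPM in D164A/fl cells, without a call. Of these 3, the Col17a1 difference alone was called in both experiments (-5.87, SE 0.61, adjusted p 1.9e-08 in the Wnt3a experiment). Col17a1 was also called lower in dm/- than in dm/fl cells in both.

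Wnt3a was tested the same way as the other cytokine given to these lines. Axin2, a common Wnt target, rose in 6 of 7 genotypes, dm/- being the exception, Notum in 1 and Lef1 in 0 (limma). Of the 34 collagen genes, 4 were called in D164A/fl cells (4.15% of all genes tested), 1 in D164A/- cells (0.654%) and 1 in dm/fl cells (0.574%). limma called 0 in fl/fl (0.378%), ΔC/fl (0.225%), ΔC/- (0.0509%) and dm/- cells (0%). There 3, 3, 0 and 0 had an unadjusted p under 0.05, not set beside all genes here. In the same order edgeR on whole reads called 0, 0, 0 and 0, beside 7, 15, 2 and 0 of all genes tested. With a replicate block, fl/fl and ΔC/fl cells had 1 call each and dm/fl cells 4. Over all genes the block moved the fl/fl calls from 52 to 857. The labels do not say that same-numbered replicates belong together. Without untreated dm/fl replicate 1, the library most similar to another genotype, the dm/fl count stayed at 1, and without replicate 2 it was 14. The dm/- comparison rests on the treated pair that stands apart, and with any single library of the ΔC/- or dm/- groups left out their counts stayed at 0. In D164A/fl cells Col9a1 fell from 42.7 and 82.1 to 5.56 and 4.42 CPM (log2 difference -3.34, SE 0.36, adjusted p 2.6e-08) and Col9a3 from 35.7 and 185 to 8.93 and 11.5 CPM (log2 difference -2.89, SE 0.43, adjusted p 1.0e-05). Without D164A/fl untreated replicate 2 the log2 difference of Col9a3 was -1.72, still a call. Col12a1 rose from 133 and 72.8 to 296 and 287 CPM in D164A/fl cells (log2 difference 1.55, SE 0.46, adjusted p 0.039) and Col8a1 from 16.5 and 9.12 to 58.3 and 50.4 CPM in D164A/fl cells (log2 difference 2.05, SE 0.62, adjusted p 0.044). The Col12a1 call ended without untreated replicate 2 (adjusted p 0.4), without treated replicate 1 (0.22), without treated replicate 2 (0.2) or by edgeR. Col8a1 lost its call without untreated replicate 1 (adjusted p 0.068), without untreated replicate 2 (0.33), without treated replicate 1 (0.28), without treated replicate 2 (0.18), with a pseudocount of 0.1, without a filter on low values or by edgeR. Col14a1 fell from 2.04 and 2.32 to 0.373 and 0.401 CPM in D164A/- cells (log2 difference -1.20, SE 0.16, adjusted p 7.6e-06), a call not made by edgeR. Col6a3 rose from 2.27 and 1.45 to 12.2 and 6.07 CPM in dm/fl cells (log2 difference 1.77, SE 0.38, adjusted p 0.013), a call that ended without treated replicate 1 (adjusted p 0.31), with a pseudocount of 0.1 or by edgeR. Col12a1, Col8a1 and Col6a3 were also not called when only the samples of the Wnt3a experiment were fitted, an alternative chosen after seeing the data. Fitted on only the samples compared, no gene of the table was called in any Wnt3a response, so every Wnt3a call above ended. Medians of the 34 genes ran from -0.22 in dm/fl to 0.06 in fl/fl cells, beside -0.02 and 0.07 for all genes. The median of all genes in fl/fl cells was 0.148 by edgeR and 0.054 when rescaled by the median of ratios.

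Genes that make, trim and bind collagen were listed beside the members. Of 15 genes for hydroxylation and glycosylation, 8 rose and 2 fell in at least 1 TGFb response, beside 11.4% and 14.3% of all genes tested. The counts were 2 and 1 of 6 tested for chaperones and export, 4 and 2 of 7 for propeptide processing, 3 and 3 of 5 for cross-linking, 2 and 2 of 6 for receptors and 2 and 3 of 4 for fibril-binding proteoglycans. Some of these genes passed the filter through few samples. Colgalt2 reached 1 CPM in 2 of the 56 samples, and P4ha3 and Itga11 in 3 each. Their highest values were in the treated groups where they were called, D164A/- cells for Colgalt2 and dm/fl cells for the others. All of these counts are therefore descriptions of the lists. The largest increases called were Loxl3, a cross-linking enzyme, and Ogn, a proteoglycan that binds collagen, in D164A/- cells, and Itga2, a chain of a collagen receptor, in dm/fl cells. Loxl3 went from 4.17 and 8.27 to 138 and 85.8 CPM (3.99, SE 0.56, adjusted p 5.5e-06), Ogn from 0.425 and 0.152 to 18.6 and 14.6 CPM (3.77, SE 0.65, adjusted p 1.3e-04) and Itga2 from 13.1 and 13.4 to 164.4 and 168 CPM (3.55, SE 0.52, adjusted p 5.0e-06). The largest decreases were Prelp and Ogn in dm/fl cells, from 375 and 175 to 1.22 and 0.329 CPM (-7.23, SE 0.74, adjusted p 5.6e-09) and from 407 and 149 to 2.56 and 0.131 CPM (-6.95, SE 0.65, adjusted p 8.0e-10), and Prelp in ΔC/fl cells, from 36.4 and 10.6 to 0.778 and 0.766 CPM (-3.56, SE 0.74, adjusted p 9.5e-04).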

How the data were processed

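The table deposited by the authors holds a signal per gene, reads divided by a scaled library size in M reads and called CPM here. That size is the sum of the reads in genes times a factor of 0.809 to 1.14 per sample, worked out from the values, which thus differ from plain counts per M reads by that factor. STAR and mm10 come from the submitters' processing notes, and the normalization step is not stated there. All values (100%) were whole multiples of a unit per sample within 0.001 reads, so whole reads could be recovered for edgeR. All 56 columns were mapped to a labelled sample.

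The 13754 genes that reached 1 CPM in 2 or more samples were tested on log2(CPM + 1) with limma 3.58.1 in R 4.3.3, over 56 samples in 28 groups, with the prior variance following the expression level. Adjusted p is the Benjamini-Hochberg false discovery rate over the 13754 genes, and a call needs 0.05 or less with a log2 difference of 1 or more. In the TGFb response of fl/fl cells edgeR 4.0.16 called 876 genes and limma 860, in the Wnt3a response 7 and 52, and for the difference in TGFb response of D164A/- minus D164A/fl cells 9 and 185. Full values are given for collagen genes called in the TGFb responses of at least 3 of 7 genotypes and for the 6 with the highest mean CPM, the fold change for others called, and for the lists of collagen processing the 3 largest increases and 3 largest decreases. The Wnt3a and untreated examples were chosen after their values were seen. The members, the classes and the lists (cell markers, processing, TGFb and Wnt targets) were chosen with earlier results of these data known. A gene of these lists is not reported here. The same tests were also run with edgeR on whole reads, unfiltered, with a pseudocount of 0.1, after scaling by the median of ratios, with the GC trend removed (GC known for 95.2% of tested genes, curve over 9381), with a replicate block with and without it, on only the samples compared, and without each library in turn. Python 3.11.15 with pandas 2.3.3, numpy 2.4.6 and matplotlib 3.10.9 was used for summaries and figures.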

Additional observations from a re-analysis of the deposited data

Results flagged for a closer look

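For each gene below the TGFb response of a genotype differed from that of another by a test of the difference itself, an adjusted p of at most 0.05 and a size of at least 1, and that singled it out. Values are differences between log2 responses, and those set against fl/fl share its samples. Against fl/fl, the response of D164A/fl cells differed in Col17a1 (3.83), Col2a1 (3.19), Col4a6 (2.81), Col12a1 (2.69), Col5a2 (2.65), Col11a1 (2.50), Col9a3 (2.49), Col9a1 (1.93), Col8a2 (1.31), Col20a1 (-2.04), Col27a1 (-2.24) and Col5a3 (-6.09). D164A/- cells, against fl/fl, differed in Col10a1 (4.33), Col2a1 (4.09), Col12a1 (3.28), Col4a6 (2.64), Col11a1 (1.57), Col8a2 (1.54), Col14a1 (1.04), Col4a4 (-1.11), Col16a1 (-3.83) and Col5a3 (-6.19). By edgeR that Col4a4 value turned to 1.43. The ΔC/fl response, against fl/fl, differed in Col17a1 (3.38), Col4a4 (3.30), Col4a3 (2.94) and Col6a3 (2.17). For ΔC/- cells against fl/fl the response differed in Col17a1 (4.88), Col4a4 (-1.56) and Col4a3 (-1.84). In dm/fl cells, against fl/fl, it differed in Col4a6 (2.42), Col10a1 (-1.62), Col4a5 (-2.00), Col5a2 (-2.29), Col6a2 (-5.06), Col5a1 (-5.27) and Col6a1 (-5.67). The dm/- response, against fl/fl, differed in Col5a2 (3.61), Col17a1 (3.46), Col4a6 (2.71), Col12a1 (2.35) and Col6a4 (1.41).

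With D164A/- set against D164A/fl the response differed in Col10a1 (2.80) and Col20a1 (2.32). ΔC/- set against ΔC/fl differed in Col15a1 (1.85), Col6a3 (-2.17), Col20a1 (-2.23), Col4a3 (-4.77) and Col4a4 (-4.86). Between dm/- and dm/fl cells it differed in Col6a1 (8.62), Col5a2 (5.90), Col6a2 (5.38), Col5a1 (5.08), Col16a1 (3.69), Col4a5 (2.94), Col12a1 (2.07), Col6a3 (1.67) and Col6a4 (1.61). A positive value means a response that was higher in the genotype named first, which can be a rise set against a fall or a smaller fall. Col6a4 reached 1 CPM in the 2 libraries of dm/- cells with TGFb alone, so it was tested only because that group was high, and both of its values are descriptions.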

How the results depend on the processing

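Counts of collagen genes called are given under each alternative with the count as reported in brackets, where they moved by more than 1.5 times. By edgeR they were 2 (6) over all Wnt3a responses, 19 (57) over all differences between genotypes, of the TGFb responses 7 (11) for ΔC/fl, of the differences in response 4 (12) for D164A/fl minus fl/fl, 2 (10) for D164A/- minus fl/fl, 1 (4) for ΔC/fl minus fl/fl, 1 (3) for ΔC/- minus fl/fl, 2 (7) for dm/fl minus fl/fl, 0 (5) for dm/- minus fl/fl, 0 (2) for D164A/- minus D164A/fl and 2 (5) for ΔC/- minus ΔC/fl, of the Wnt3a responses 2 (4) for D164A/fl, 0 (1) for D164A/- and 0 (1) for dm/fl, in untreated cells of the TGFb experiment 14 (9) for D164A/- minus D164A/fl. With a pseudocount of 0.1 they were of the differences in response 5 (10) for D164A/- minus fl/fl, 2 (4) for ΔC/fl minus fl/fl, 4 (7) for dm/fl minus fl/fl, 0 (2) for D164A/- minus D164A/fl and 3 (5) for ΔC/- minus ΔC/fl, in untreated cells of the TGFb experiment 14 (9) for D164A/- minus D164A/fl. Testing without a filter on low values gave of the differences in response 4 (7) for dm/fl minus fl/fl. With the GC trend removed the counts were 10 (6) over all Wnt3a responses, of the differences in response 7 (12) for D164A/fl minus fl/fl and 4 (2) for D164A/- minus D164A/fl, of the Wnt3a responses 2 (1) for D164A/- and 2 (1) for dm/fl. Fitted on only the samples compared, where fewer samples give the spread, they were 39 (75) over all TGFb responses, 0 (6) over all Wnt3a responses, of the TGFb responses 8 (14) for D164A/fl, 0 (10) for D164A/-, 0 (11) for ΔC/fl and 4 (14) for dm/-, of the differences in response 0 (2) for D164A/- minus D164A/fl, of the Wnt3a responses 0 (4) for D164A/fl, 0 (1) for D164A/- and 0 (1) for dm/fl, in untreated cells of the Wnt3a experiment 0 (4) for D164A/- minus D164A/fl, 0 (11) for ΔC/- minus ΔC/fl and 0 (12) for dm/- minus dm/fl. Rescaling by the median of ratios moved no count that far. Apart from the fit on only the samples compared, the cause was not tested.

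The labels give replicates the same numbers without saying that they belong together. Deviations of same-numbered samples from their group means correlated at 0.71, 0.63, 0.32, 0.53, -0.25, 0.57, 0.47, 0.54, 0.73, 0.92, 0.84, 0.94, -0.10, 0.76, 0.34, 0.33, -0.16, 0.81, 0.49 and -0.60 in the 20 comparisons of groups, most of them positive and 4 negative, and no shared origin of same-numbered samples is stated. With a replicate block the counts were 14 (6) over all Wnt3a responses, 86 (57) over all differences between genotypes, of the TGFb responses 11 (6) for ΔC/-, of the differences in response 7 (4) for ΔC/fl minus fl/fl, 11 (7) for dm/fl minus fl/fl, 8 (5) for dm/- minus fl/fl, 6 (2) for D164A/- minus D164A/fl and 8 (5) for ΔC/- minus ΔC/fl, of the Wnt3a responses 1 (0) for fl/fl, 2 (1) for D164A/-, 1 (0) for ΔC/fl and 4 (1) for dm/fl. With the replicate block and the GC trend removed they were 16 (6) over all Wnt3a responses, 105 (57) over all differences between genotypes, of the TGFb responses 11 (6) for ΔC/-, of the differences in response 10 (4) for ΔC/fl minus fl/fl, 6 (3) for ΔC/- minus fl/fl, 12 (7) for dm/fl minus fl/fl, 9 (5) for dm/- minus fl/fl, 8 (2) for D164A/- minus D164A/fl, 13 (5) for ΔC/- minus ΔC/fl and 15 (9) for dm/- minus dm/fl, of the Wnt3a responses 1 (0) for fl/fl, 7 (4) for D164A/fl, 3 (1) for D164A/-, 2 (0) for ΔC/fl and 3 (1) for dm/fl.

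With each library left out in turn, the lone sample left in its group being taken to vary like the other groups, the counts ranged as follows. The TGFb responses gave 7 to 12 for D164A/fl, 6 to 10 for D164A/-, 6 to 10 for ΔC/fl and 6 to 12 for dm/-. Differences in response gave 4 to 10 for D164A/fl minus fl/fl, 6 to 9 for D164A/- minus fl/fl, 2 to 4 for ΔC/fl minus fl/fl, 3 to 6 for dm/fl minus fl/fl, 3 to 4 for dm/- minus fl/fl, 1 to 3 for D164A/- minus D164A/fl and 3 to 4 for ΔC/- minus ΔC/fl. Wnt3a responses gave 0 to 1 for fl/fl, 2 to 3 for D164A/fl, 1 to 2 for D164A/-, 0 to 1 for ΔC/fl and 1 to 14 for dm/fl, and 4 to 19 over all. Untreated cells of the Wnt3a experiment gave 5 to 10 for ΔC/- minus ΔC/fl and 9 to 20 for dm/- minus dm/fl. Of 1028 refits of a gene called, 776 kept the call, and 78 of the 200 results lost it in at least 1.

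Among single genes called, of 200, 62 were not called by edgeR, 35 with a pseudocount of 0.1, 20 with the GC trend removed, 6 when rescaled, 8 without the filter and 95 on only the samples compared. The replicate block kept all 200, and the block with the GC trend removed lost 6. By edgeR the difference between the Col4a4 responses of D164A/- and fl/fl cells turned to 1.43, and it was negative as reported; both D164A/- groups lie near the floor. Outside that no called direction turned.

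A pair of alternatives was chosen after seeing the data. Without the 4 libraries of dm/fl without Wnt3a and dm/- with Wnt3a, the TGFb responses gave 83 calls (75) and the differences 63 (57), and 187 of 187 calls fitted were kept, while comparisons using those groups could not be fitted. Fitted on only the samples of the same experiment, the counts were 3 (6) over all Wnt3a responses, of the TGFb responses 10 (6) for ΔC/-, of the differences in response 5 (2) for D164A/- minus D164A/fl, of the Wnt3a responses 2 (4) for D164A/fl and 0 (1) for dm/fl, and 191 of 200 calls were kept. Depth limits genes under 0.092 to 0.146 CPM, where 3 reads or fewer stand behind a value.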
